A study of Mus musculus with 6 samples.

Results

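This account concerns 40 mouse genes of mitosis and the spindle, from the cyclins and kinases that start cell division to the kinetochore, the spindle motors and the proteins that split the daughter cells. The genes were chosen by name, as known components of cell division, with earlier results of these data known. Every transcript that the deposited table lists under those names was read. They are 40 of 21235 protein-coding gene names and of 46529 gene names in all. Total RNA-Seq had been run on livers of 6 wild-type C57BL/6 mice, aged 10 weeks and kept on a normal chow diet (NCD). In 3 mice an adenovirus carried mouse Mafg cDNA (Ad-MAFG), and the other 3 received the same virus without it (Ad-CMV). MAFG, a small MAF protein, binds DNA as a partner of factors such as NRF2 and BACH proteins, and the comparison asks how the liver responds to more of it. Both vectors use the cytomegalovirus promoter, which is not specific to hepatocytes, and both groups received a virus, so no untreated liver entered the comparison. Mafg itself was not analysed here, so its own level could not serve as a check of the labels.

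For each listed transcript the table gives 1 FPKM value (fragments scaled to transcript length and to the size of the library) per group, pooled over the mice by the Cuffdiff program. No value per mouse was used, so no SD, no test and no replicate check accompanies any ratio below, and the depth of each library is unknown. Ratios are Ad-MAFG over Ad-CMV with 0.1 FPKM added to both values, which understates the change of low genes. A gene was compared where the program's status showed enough alignments, and was represented by its listed transcript with the highest mean FPKM. Here "past 2-fold" is a size, not a test result.

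Adult hepatocytes rarely divide, and their mitotic genes are close to silent until injury, partial loss of the liver or a growth signal brings cells back into the cycle. Cyclin B and the kinase CDK1 then drive entry into mitosis, Aurora and Polo kinases build the spindle, the kinetochore couples chromosomes to microtubules, and separase and the centralspindlin complex end the division. Most of these genes are transcribed together in G2 and mitosis. In resting cells the DREAM complex holds them down through the cell cycle genes homology region (CHR) of their promoters, and in G2 the MuvB core, B-MYB and FOXM1 turn them on, often together with CCAAT boxes that bind NF-Y.

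Promoter sequences were taken from RefSeq (GRCm38.p6), which gave a window of 250 bases before to 50 bases after the start site for 33 of the 40 genes. The following 5 are examples of windows with CHR, CHR variant or CCAAT letters, and the ratios of their genes run from 1.08-fold (Top2a) to 2.59-fold (Birc5). Such letters do not set them apart. None of the largest ratios and no gene below parity is among them, though Cdca3, Aurka, Espl1 and Kif23 also had windows with such letters. Each line gives the 250 bases before the start site, 5′ to 3′, with the letters TTTGAA (CHR), TTTAAA (a CHR variant) and CCAAT in capitals on either strand, so that ATTGG is CCAAT and TTCAAA is TTTGAA read from the other strand. The windows are chr13:100786487-100786736, chr9:70421555-70421804 and chr10:69352913-69353162 on the minus strand, chr11:117848987-117849236 on the plus strand and chr11:99024190-99024439 on the minus strand.
Ccnb1: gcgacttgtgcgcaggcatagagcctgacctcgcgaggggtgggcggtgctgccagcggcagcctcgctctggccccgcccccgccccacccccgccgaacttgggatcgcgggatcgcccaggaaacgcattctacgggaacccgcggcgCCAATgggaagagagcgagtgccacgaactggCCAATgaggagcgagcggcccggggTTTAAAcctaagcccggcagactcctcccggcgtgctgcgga
Ccnb2: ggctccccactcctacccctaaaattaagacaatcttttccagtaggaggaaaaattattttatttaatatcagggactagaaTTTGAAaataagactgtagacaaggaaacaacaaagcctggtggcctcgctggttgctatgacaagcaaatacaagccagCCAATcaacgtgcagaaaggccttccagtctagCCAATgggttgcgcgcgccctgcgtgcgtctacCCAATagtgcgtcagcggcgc
Cdk1: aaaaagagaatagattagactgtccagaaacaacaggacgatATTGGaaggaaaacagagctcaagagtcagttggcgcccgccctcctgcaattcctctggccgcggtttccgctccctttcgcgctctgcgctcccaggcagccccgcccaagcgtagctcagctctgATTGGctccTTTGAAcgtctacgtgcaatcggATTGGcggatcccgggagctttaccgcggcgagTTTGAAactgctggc
Birc5: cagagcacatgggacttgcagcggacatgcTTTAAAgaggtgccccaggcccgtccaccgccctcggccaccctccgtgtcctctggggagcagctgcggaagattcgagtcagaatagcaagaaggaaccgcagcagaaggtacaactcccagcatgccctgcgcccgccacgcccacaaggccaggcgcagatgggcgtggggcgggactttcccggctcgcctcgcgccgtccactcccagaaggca
Top2a: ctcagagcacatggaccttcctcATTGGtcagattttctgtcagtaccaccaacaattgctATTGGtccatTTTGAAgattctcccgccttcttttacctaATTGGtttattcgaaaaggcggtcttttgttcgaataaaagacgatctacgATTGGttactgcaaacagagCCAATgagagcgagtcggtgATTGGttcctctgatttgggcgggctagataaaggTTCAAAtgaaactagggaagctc

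The window of Ccnb1 held TTTAAA at -42 and CCAAT at -99 and -67, counted from the first base of each motif to the start site. Ccnb2 held CCAAT at -87, -54 and -21, so that neighbouring copies lay 33 bases apart. It held TTTGAA at -167 and again at 5, after the start site and outside the printed bases. The proximal CCAAT pairs of Ccnb1 and of Cdk1 lay 32 bases apart. Birc5 held only TTTAAA among these letters, at -220, and Top2a held 6 CCAAT and 2 TTTGAA. Over the windows of 300 bases on both strands, TTTGAA stood in 25 of 33 genes (75.8%) against 20.2% of the 27025 genes with a window. CCAAT stood in 75.8% against 41.1%, and at least 2 copies in 17 of 33 (51.5%) against 13.3%. Of genes with at least 2 copies, neighbouring copies lay 31 to 34 bases apart in 8 of 17 members (47.1%) and in 355 of 3585 genes in all (9.90%), a distance range chosen after the sequences were seen. TTTAAA stood in 9 of 33 genes (27.3%) against 14.9%. The core of the antioxidant response element that small MAF dimers bind, searched as TGACNNNGC on both strands, stood in 6 of 33 (18.2%) against 14.0%. These are matches of letters, and none was tested as a binding site.

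Mitotic genes were, as a group, listed at higher levels in livers with added MAFG. Of the 40 genes, 23 had enough alignments and 17 did not. Of the 23, 8 were at least 2-fold higher in Ad-MAFG, namely Kif20a, Cdca3, Mybl1, Birc5, Ccnb1, Ccnb2, Cdca8 and Cdc25c. Of all 9408 protein-coding genes compared in the same way 593 (6.30%) were, against 34.8% of the 23. Only Aurka was at least 2-fold lower (4.35%, against 4.83% of all genes). At a lower bar of 1.5-fold, 16 of 23 were higher (69.6%, against 12.9% of all) and 2 were lower (8.70%, against 11.1%). The median log2 ratio of the 23 was 0.77, a 1.70-fold difference, against -0.02 over all genes, and 20 of the 23 lay above parity against 47.7% of all genes. The summed level of the 23 was 48.5 FPKM in Ad-CMV and 77.9 in Ad-MAFG, and the median level was 1.42 FPKM in Ad-CMV and 2.54 FPKM in Ad-MAFG. Whether the values are those of the mRNA of these genes was not tested. With 1 pooled value per group, a difference between single mice cannot be told apart from one between groups. Because whole liver was sequenced, more dividing cells and more RNA per dividing cell cannot be told apart either.

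**Figure D1:**
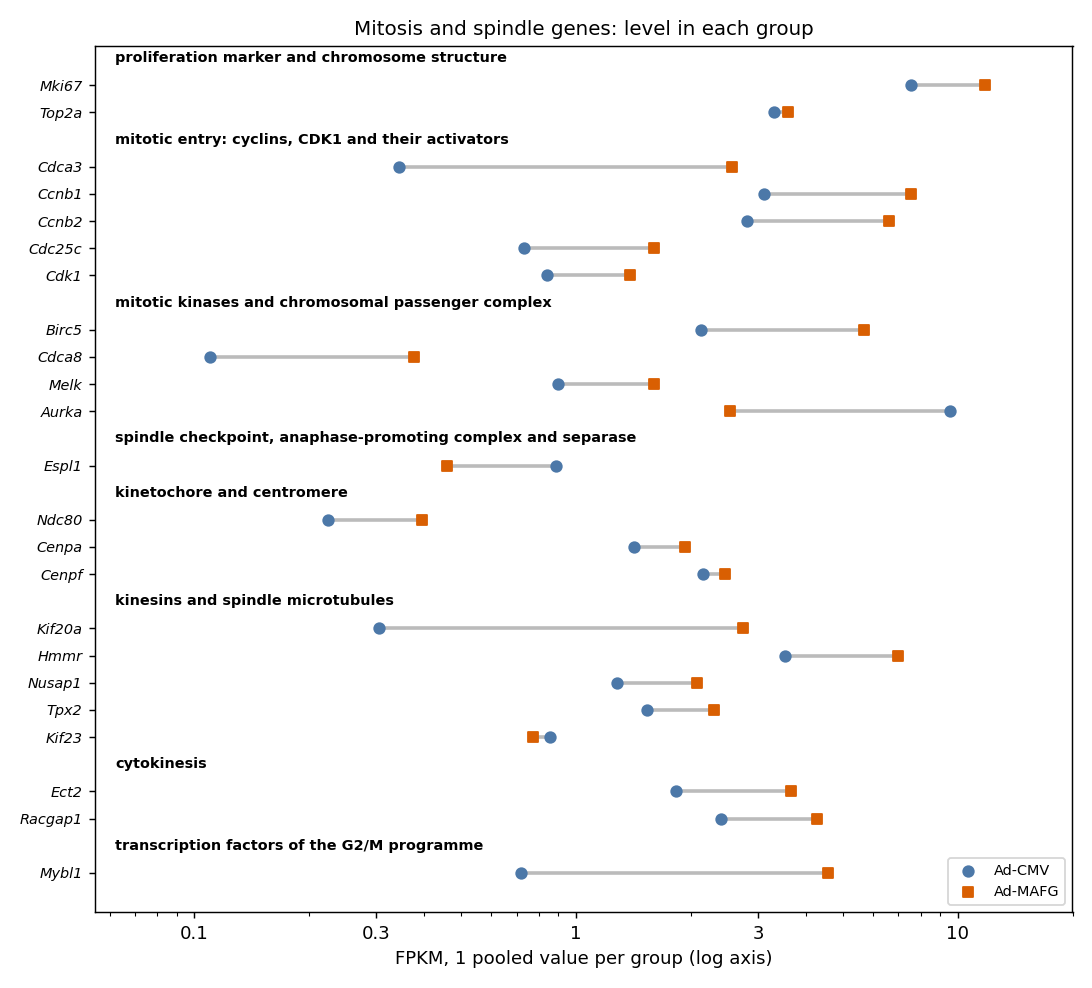
Level of each of the 23 compared genes in Ad-CMV (circles) and Ad-MAFG (squares) in FPKM on a log axis, 1 pooled value per group and therefore no error bars, grouped by role. Squares lie to the right of circles in 20 genes, with the widest steps in Kif20a, Cdca3 and Mybl1, and to the left in Kif23, Espl1 and Aurka.

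Levels of the 23 genes were low, with a mean FPKM over both groups of 0.243 to 9.67. Among the 8270 protein-coding genes in that range, 6.51% were at least 2-fold higher, close to the share over all genes. Short of 2-fold, 8 further genes lay between 1.5-fold and 2-fold and 4 between parity and 1.5-fold, while 3 lay below parity. The filter on alignments acts on both groups together, so a gene can pass it through the group where it is high. The Ad-CMV values of Kif20a (0.305 FPKM), Ndc80 (0.224) and Cdca8 (0.110) lie under the highest value among the genes that did not pass, 0.319 FPKM, and that of Cdca3 (0.343) just above it. Whether these passed only through Ad-MAFG could not be read from the pooled values, and the counts are a description and not support for a difference.

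**Figure D2:**
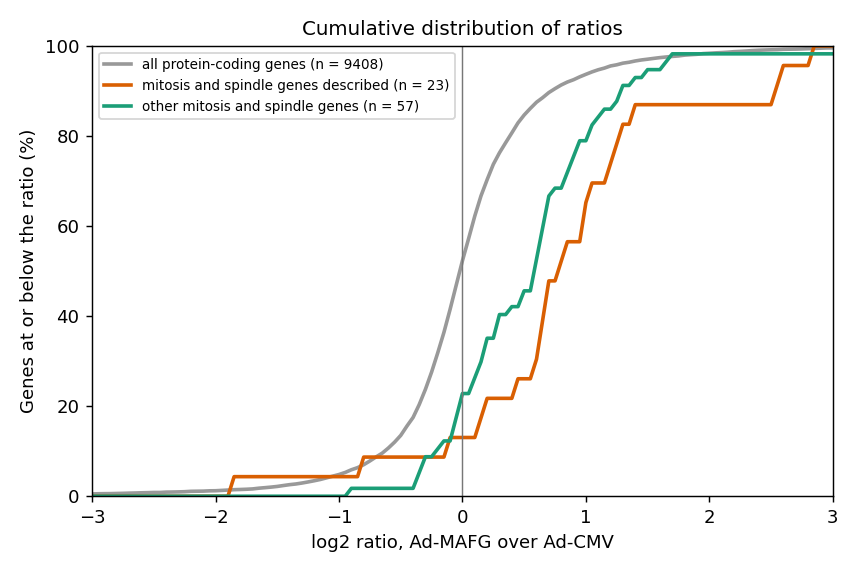
Share of genes (%) at or below each log2 ratio of Ad-MAFG over Ad-CMV for all 9408 protein-coding genes, for the 23 genes described here and for 57 other mitosis and spindle genes. Both mitotic curves lie to the right of the curve of all genes between log2 ratios of 0 and 1. In parts of the lower tail the curve of the 23 lies to its left. These are from -1.85 to -1.1, past the step of Aurka, and from -0.8 to -0.75, past that of Espl1. The medians are 0.77 and 0.58 against -0.02.

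The genes that start mitosis had the largest count past 2-fold, 4 of 5 compared. Ccnb1, cyclin B1, the subunit that activates CDK1 (chromosome 13, 100778650 to 100786570, minus strand, GRCm38), was listed at 3.11 FPKM in Ad-CMV and 7.54 in Ad-MAFG, 2.38-fold higher. The related cyclin B2, Ccnb2 (chromosome 9, 70407689 to 70421554, minus strand), was at 2.81 and 6.62 FPKM, 2.31-fold higher. Both B cyclins thus differed by nearly the same ratio. Cdc25c, the phosphatase that removes inhibitory phosphates from CDK1, was at 0.729 and 1.60 FPKM (2.05-fold). Cdca3, a trigger of mitotic entry that promotes the loss of the CDK1 inhibitor kinase WEE1 (chromosome 6, 124829547 to 124833701, plus strand), was at 0.343 and 2.57 FPKM, 6.03-fold higher. Cdk1, the kinase itself, was listed at 0.842 and 1.38 FPKM, 1.58-fold higher and short of 2-fold. Ccna2, cyclin A2, the sixth gene of this class, lacked enough alignments.

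Subunits of the chromosomal passenger complex, which corrects faulty attachments of chromosomes to microtubules, were also higher. Birc5, survivin (chromosome 11, 117849251 to 117855743, plus strand), was at 2.13 FPKM in Ad-CMV and 5.67 in Ad-MAFG (2.59-fold). Cdca8, borealin, was at 0.110 and 0.376 FPKM (2.27-fold), the lowest Ad-CMV level among the compared genes. The kinase of the complex, Aurkb, lacked enough alignments in the listed transcript. Melk, a kinase with high levels in dividing and progenitor cells, was at 0.900 and 1.60 FPKM (1.70-fold).

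For Aurka, the centrosomal Aurora A kinase, the listed transcript went the other way. Its listed transcript (chromosome 2, 172356190 to 172370535, minus strand) was at 9.55 FPKM in Ad-CMV and 2.54 in Ad-MAFG, a log2 ratio of -1.87. It had the highest Ad-CMV level of the 23 genes, above Mki67. The assembled locus of Aurka also covers Fam210b, which lies on the other strand and was listed at 8.47 and 4.82 FPKM, lower in Ad-MAFG as well. Tpx2, which binds and activates Aurora A on spindle microtubules, was at 1.54 and 2.30 FPKM (1.47-fold).

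Among motors and spindle proteins, 4 of 5 compared genes lay above parity and 1 was past 2-fold. Kif20a, a kinesin that carries the passenger complex to the spindle midzone, was at 0.305 FPKM in Ad-CMV and 2.74 in Ad-MAFG, the largest ratio of the list (7.02-fold). The assembled locus of Kif20a also covers Cdc23, a subunit of the anaphase-promoting complex, whose transcript was listed at 0.0486 and 0.569 FPKM. Hmmr, a spindle-assembly protein and hyaluronan receptor, was at 3.54 and 6.99 FPKM, just short of 2-fold (1.95-fold). Nusap1, which bundles spindle microtubules, was at 1.28 and 2.08 FPKM (1.58-fold). Kif23, the kinesin of centralspindlin, was at 0.857 and 0.771 FPKM, a ratio of 0.911. Its partner in that complex, Racgap1, was at 2.40 and 4.29 FPKM (1.76-fold), and Ect2, the exchange factor that Racgap1 recruits to activate RhoA at the cleavage furrow, was at 1.83 and 3.65 FPKM (1.95-fold). The ratio of Kif23 turned to the other side of parity when all its listed transcripts were summed (log2 ratio 0.15). That sum adds an own-strand transcript without enough alignments, listed at 6.03e-06 and 0.188 FPKM.

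Kinetochore and chromosome genes differed less. Ndc80, the microtubule-binding subunit of the outer kinetochore, was at 0.224 and 0.395 FPKM (1.53-fold). Cenpa, the centromeric histone variant, was at 1.42 and 1.93 FPKM (1.33-fold), and Cenpf, a large protein of the outer kinetochore, at 2.15 and 2.46 FPKM (1.14-fold). None of these genes was past 2-fold. Mki67, which encodes the proliferation marker Ki-67 (chromosome 7, 135689784 to 135716361, minus strand), was the most abundant in Ad-MAFG, at 7.53 and 11.8 FPKM (1.56-fold). Top2a, the topoisomerase that untangles sister chromatids, was at 3.30 and 3.59 FPKM (1.08-fold). Kinetochore and centromere genes of a further list, described below, lay on either side of 2-fold, with Cenpm at 3.17-fold and Spc24 at 0.954-fold. No difference between roles was tested.

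Of the factors that transcribe this programme only Mybl1 was compared. Mybl1, the MYB family member A-MYB (chromosome 1, 9667415 to 9700209, minus strand), was at 0.717 FPKM in Ad-CMV and 4.57 in Ad-MAFG, 5.71-fold higher. Its relatives in the programme, Mybl2 (B-MYB) and Foxm1, lacked enough alignments. Foxm1 was listed at 0.104 and 0.0528 FPKM, and the highest of the 4 Mybl2 transcripts at 0.141 and 0.308 FPKM. At these levels no direction was read.

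The 17 genes without enough alignments were Anln, Aurkb, Bub1, Bub1b, Ccna2, Cdc20, Cenpe, Foxm1, Kif11, Kif2c, Kif4, Mybl2, Nuf2, Plk1, Prc1, Ttk and Ube2c. Their highest value was 0.319 FPKM, that of the checkpoint kinase Bub1b in Ad-CMV, which was at 0.242 FPKM in Ad-MAFG. They include 5 of the 6 genes of the spindle checkpoint, anaphase-promoting complex and separase class. Plk1, the Polo kinase, was at 0.139 and 0.0686 FPKM, Cenpe, the kinetochore kinesin, at 0.0560 and 0.160, Prc1, the midzone bundler, at 0.0432 and 0.168, and Ube2c, the ubiquitin carrier of the anaphase-promoting complex, at 0.0675 and 0.214. A low value here is that of 1 listed transcript and not of the gene: on the strand of the gene, the numbering left room for 4 to 21 transcripts (median 9) behind each such entry, and the further ones were not analysed here.

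The strand of the listed transcripts qualifies every value. Read from the order in which the assembled loci are numbered, 27 of the 34 entries with enough alignments lay opposite to the strand of the named gene, and 7 on its own strand. Of all 19329 such entries listed for genes of known strand, 12874 (66.6%) lay opposite. Of the 23 genes, 17 are represented by an opposite-strand and 6 by an own-strand transcript (Kif20a, Cdca3, Birc5, Cdca8, Nusap1 and Aurka). Of the 6 own-strand genes, 4 were past 2-fold higher (66.7%, against 4.95% of all genes so represented), and 4 of the 17 others (23.5%, against 6.91%). The median log2 ratios were 1.28 and 0.66. Whether an opposite-strand value holds the mRNA of the named gene or other RNA at that position was not tested. Own-strand entries with enough alignments are also single transcripts. The numbering left room for 2 to 12 transcripts behind each, with 12 for Cdca3, 6 for Aurka and 3 for Kif20a. Whether the ratio of such an entry is that of the whole gene was not tested.

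Over the 23 genes, 31 of the 34 transcripts with enough alignments lay above parity, 25 of 27 on the opposite strand and 6 of 7 on the own strand. Some genes enter these counts with several transcripts of the same locus. Of all protein-coding genes represented on those strands, by 1 transcript each, 51.7% and 38.5% lay above parity. In 8 genes several transcripts had enough alignments and could be compared with each other. Birc5 and Ccnb2 were listed on both strands. The opposite-strand transcript of Birc5 was at 1.20 and 2.42 FPKM (1.94-fold), beside 2.59-fold on its own strand. The own-strand transcript of Ccnb2 was at 0.332 and 0.753 FPKM (1.97-fold), and its second opposite-strand transcript was 1.84-fold higher, beside 2.31-fold for the most abundant. The second transcript of Mybl1, at 0.212 and 1.89 FPKM, was 6.38-fold higher. Those of Ccnb1, Hmmr and Cdc25c were 1.70-fold, 1.5-fold and 1.28-fold higher, so Ccnb1, Ccnb2, Birc5 and Cdc25c each had a transcript past 2-fold and at least 1 short of it. The 3 transcripts of Cenpf ranged from 1.14-fold to 1.33-fold.

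Espl1, separase, the protease that cuts cohesin at anaphase, was the only gene whose transcripts with enough alignments disagreed in direction. Its most abundant transcript was at 0.887 FPKM in Ad-CMV and 0.459 in Ad-MAFG, a ratio of 0.566. The others were at 0.420 and 0.716 FPKM and at 0.334 and 0.580 FPKM, both 1.57-fold higher. Summed over all its listed transcripts, also that without enough alignments, Espl1 had a log2 ratio of 0.13.

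**Figure D3:**
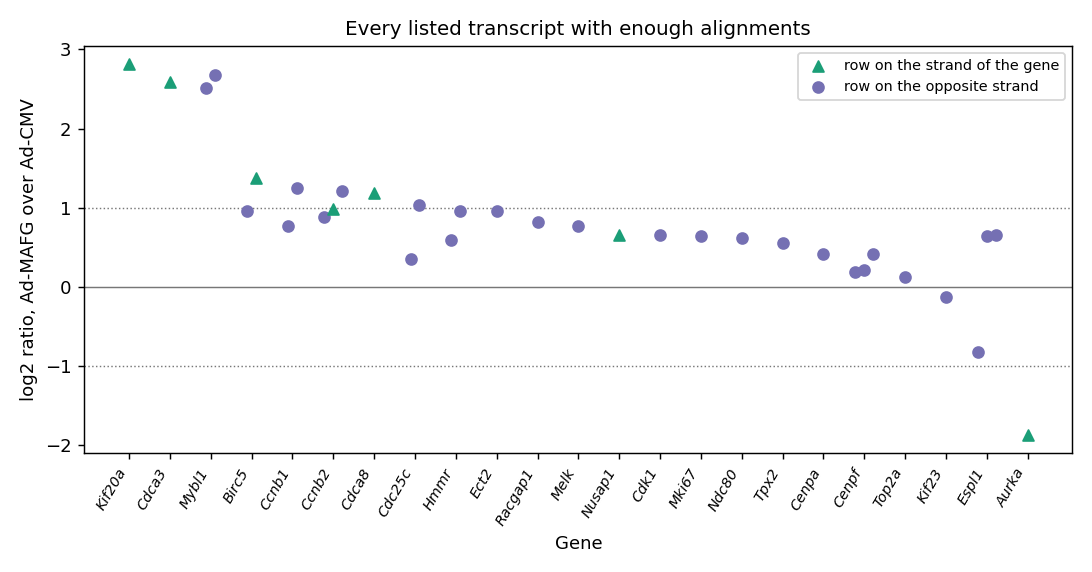
Log2 ratio of Ad-MAFG over Ad-CMV for each of the 34 listed transcripts with enough alignments, by gene, with triangles for transcripts on the strand of the gene and circles for those on the opposite strand. The dotted lines mark 2-fold. The transcripts of a gene lie on the same side of 0 except those of Espl1, and 31 of 34 lie above 0.

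The assembled loci of 5 genes also overlap another protein-coding gene, which makes the values of these genes uncertain: Aurka, Cdc25c, Cdca8, Kif20a and Nusap1. Without these 5 genes, in a count added after the data were seen, 5 of 18 were past 2-fold higher, against 6.30% of all genes. They were Cdca3, Mybl1, Birc5, Ccnb1 and Ccnb2. None was past 2-fold lower, against 4.83% of all genes, and the median log2 ratio was 0.71.

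Further genes of cell division lay mostly above parity. A list of 90 other mitosis and spindle symbols was drawn up for this comparison, with earlier results of these data known. Of its 57 genes with enough alignments, 12 were at least 2-fold higher, against 6.30% of all genes, and none was 2-fold lower. Above parity lay 44, against 47.7% of all genes (median log2 ratio 0.58). One of the 12, Knstrn, a kinetochore protein, was listed at 3.51e-06 FPKM in Ad-CMV and 0.847 in Ad-MAFG, so that it passed the alignment filter through Ad-MAFG alone and had to differ. The most abundant of the 12 were Ckap2, a spindle and centrosome protein (2.84 and 7.03 FPKM, 2.42-fold), Pbk, a mitotic kinase (1.64 and 4.72 FPKM, 2.77-fold), and Diaph3, a formin that builds actin filaments (1.64 and 4.14 FPKM, 2.43-fold). Mad2l1, the checkpoint protein MAD2, was at 1.79 and 3.90 FPKM (2.12-fold) and Cenpm, a centromere protein, at 0.946 and 3.21 FPKM (3.17-fold). Among the 12, only Knstrn was represented by an own-strand transcript. Apart from Knstrn, the count past 2-fold thus rests on opposite-strand transcripts, and whether these hold the mRNA of the named genes was not tested. Of all protein-coding genes represented on their own strand, 4.95% were past 2-fold higher. The genes of the list represented on their own strand, other than Knstrn, were all short of 2-fold and lay on both sides of parity. Examples are Cks2 (12.2 and 11.9 FPKM), Oip5 (10.9 and 9.56 FPKM) and Cenpw (1.27 and 2.00 FPKM). None of 7 compared genes of the DREAM and MuvB complexes was past 2-fold in either direction (median -0.09). Of 7 compared genes that restrain CDKs or mitosis 1 was, Cdkn1a, the p21 inhibitor, at 3.81 and 8.64 FPKM (2.23-fold), with a list median of 0.12.

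Markers of the cells that whole liver holds also differed between the groups. Beside these lists, 6.30% of all protein-coding genes were at least 2-fold higher and 4.83% lower. Of 8 stellate cell and matrix genes 4 were at least 2-fold higher and none lower (median log2 ratio 1.17), and their summed level was 44.6 FPKM in Ad-CMV and 146 in Ad-MAFG. Collagens led this list, with Col3a1 at 12.2 and 62.5 FPKM, Col1a2 at 6.77 and 32.7 FPKM and Col1a1 at 2.19 and 13.4 FPKM, and Acta2, the smooth muscle actin of activated stellate cells, was at 0.462 and 1.42 FPKM. Of 4 cholangiocyte genes 2 were past 2-fold higher, Spp1 at 11.5 and 40.9 FPKM and Krt19 at 0.584 and 1.49 FPKM, while Epcam was at 2.30 and 3.54 FPKM. Their summed level was 16.2 and 48.4 FPKM. All 8 stellate cell and matrix genes and all 4 cholangiocyte genes were represented by opposite-strand transcripts. Whether these hold the mRNA of the markers was not tested. Of 6 hepatocyte genes 2 were past 2-fold lower and none higher (median -0.78). Alb was at 4310 and 5603 FPKM, and the genes past 2-fold were Apoa1 (1195 and 496 FPKM) and Serpina1c (396 and 144 FPKM). The tissue thus carried its defining markers in both groups.

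Immune and blood markers differed in both directions. Across these lists, genes were represented by transcripts of either strand. Of 8 macrophage genes 1, Marco, was past 2-fold and lower (13.6 and 2.10 FPKM), while Cd5l (35.3 and 50.3 FPKM) and Lyz2 (26.1 and 49.9 FPKM) were the most abundant and the summed level was 96.5 and 129 FPKM. Of 7 T and NK cell genes 1, Prf1, was past 2-fold and lower (2.53 and 1.08 FPKM), the most abundant was Gzmb (3.54 and 1.93 FPKM), and the summed level was 9.86 and 6.49 FPKM. Of 5 endothelial genes none was past 2-fold (median -0.18), with Kdr at 12.5 and 9.28 FPKM and Pecam1 at 10.5 and 8.42 FPKM. B and plasma cell, neutrophil and erythroid lists each had 1 gene past 2-fold higher, among 2, 3 and 5 compared, with median log2 ratios of 0.55, 0.89 and 0.40. These were Jchain (0.664 and 2.50 FPKM), Retnlg (0.50 and 1.59 FPKM) and Hba-a1 (0.366 and 0.990 FPKM). The most abundant of the same lists were Ms4a1 (0.593 and 0.335 FPKM) beside Jchain, S100a8 (3.61 and 3.91 FPKM) with S100a9 (1.96 and 3.73 FPKM), and Hbb-bs (526 and 694 FPKM) with Hbb-bt (336 and 403 FPKM). Among the markers without enough alignments were Cd79a of B cells and Ly6g of neutrophils. The part of any of these cell types in the mitotic ratios was not tested.

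**Figure D4:**
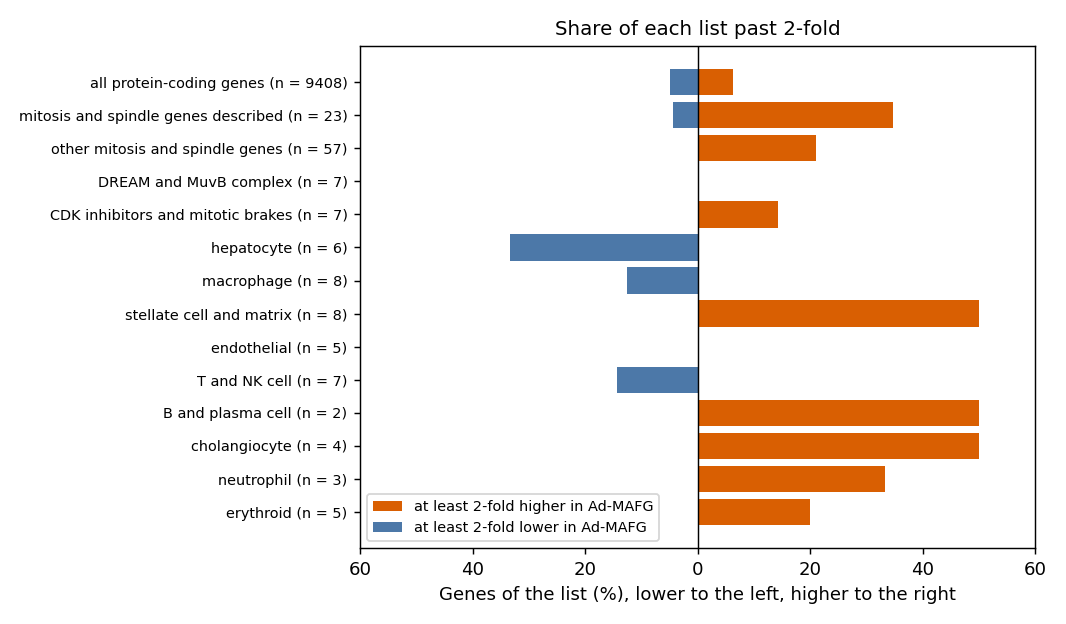
Share of each list (%) at least 2-fold higher (right) or lower (left) in Ad-MAFG, with the number of compared genes beside each name. The mitosis and spindle genes reach 34.8% higher, all protein-coding genes 6.30%, and the lists of cell types hold 2 to 8 genes each, so that 1 gene makes a large step.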

How the data were processed

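Ribosomal RNA was depleted, and strand-specific libraries were sequenced as paired reads. Per the study's methods and the submitters' processing notes, ribosomal reads were removed with Bowtie2 2.2.9, and reads were aligned with STAR 2.6.0c to GRCm38, assembled with Cufflinks 2.2.1 and compared with Cuffdiff. The authors deposited 1 table of 68997 listed transcripts, 25081 of them with enough alignments, whose FPKM values are Cuffdiff estimates pooled per group. It holds 0 columns of per-sample values, and no whole reads could be recovered, since 7090 values lie above 0 but under 1e-06. The authors' own fold change, test statistic, p and q columns were not used. Labels give 3 mice per group, but a legend of the study gives another number.

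Groups came from the sample titles. Ratios (pseudocount 0.1 FPKM), counts and medians were computed with Python 3.11.15, pandas 2.3.3 and NumPy 2.4.6, and the counting was tested on simulated data. The 40 genes and all lists were chosen with earlier results of these data known. Every compared gene of the 40 is named. From the other pathway lists up to 5 genes past 2-fold with the highest mean FPKM are named, and from the cell type lists also the 2 most abundant. Alternatives were other choices of transcript, pseudocounts of 0.01 and 1 FPKM, folds of 1.5 and 3, a mean FPKM of at least 1, no alignment filter and centring. Sequences came from RefSeq.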

Additional observations from a re-analysis of the deposited data

How the results depend on the processing

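The median log2 ratio of the mitosis and spindle genes stayed above 0 under every alternative run for it, from 0.46 with a pseudocount of 1 FPKM to 1.18 with own-strand transcripts only. The count of 8 genes past 2-fold higher is given here with the share of all genes past the same bar in brackets. Summing also took in transcripts of the compared genes without enough alignments. The count was 7 with summed transcripts (6.24%) and 7 of 19 with a mean FPKM of at least 1 (3.78%). It stayed at 8 with a pseudocount of 0.01 (7.44%) or centring (6.53%), and was 10 of 40 with no alignment filter (4.91%). It was 4 of 7 genes with own-strand transcripts (6.40%) and 4 of 18 with opposite-strand transcripts (6.53%). A pseudocount of 1 FPKM gave 5 (1.69%), a fold of 1.5 gave 16 (12.9%) and a fold of 3 gave 3 (2.64%). Without the 5 genes with shared loci it was 5 of 18 (6.30%). With one strand only, fewer genes were compared and some were represented by another transcript, which took Birc5 to 0.95 (opposite strand) and Ccnb2 to 0.98 (own strand) on the log2 scale. The count of 1 gene past 2-fold lower was 2 at 1.5-fold (11.1% of all genes). It was 0 with opposite-strand transcripts (3.93%) or without the genes with shared loci (4.83%), which leave out Aurka. Of 159 ratios of single genes under an alternative, 2 changed sign, both with summed transcripts and neither past 2-fold: Espl1 from -0.82 to 0.13 and Kif23 from -0.14 to 0.15. Including Espl1, 5 moved by more than 1.5 times, the others with a pseudocount of 1 FPKM, Cdca3 (1.41), Cdca8 (0.31), Kif20a (1.52) and Mybl1 (1.70). No paired analysis was possible because the table has 1 pooled value per group, and for the same reason no mouse could be left out. Depth is unknown, so the counting error of values under 1 FPKM cannot be given.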

Other observations

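Other transcripts listed at the positions of these genes were read as values only. RP24-378B22.2, an unclassified transcript on the opposite strand of Mki67, was at 1.96 FPKM in Ad-CMV and 2.81 in Ad-MAFG. The transcript that represents Mki67, at 7.53 and 11.8 FPKM, lies on that same opposite strand. On its own strand Mki67 was listed at 0.0658 and 0.203 FPKM, without enough alignments. In the locus of Nusap1, Oip5, a centromere protein, was at 10.9 and 9.56 FPKM and the lincRNA 1700020I14Rik at 1.65 and 1.33 FPKM, both lower in Ad-MAFG where Nusap1 was higher. At Cdca8, 9930104L06Rik was at 0.387 and 0.480 FPKM.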
